A study of Mus musculus with 4 samples.

Results

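The CTCF summits shared by all 4 cell lines were 38717 of the 81054 summits (47.8%) that the Ins library held on 18 autosomes, and the 4 lists of the series held 334066 summits in all. Members were chosen by the measured summit positions alone: a member is a summit of the Ins list, on any autosome other than chromosome 11, with a summit within 100 bp in each of the other 3 lists. CTCF was profiled by CUT&RUN, in which an antibody-guided nuclease releases the DNA around a bound protein, in mouse embryonic stem cells (mESC) with 1 library per genotype. All 4 lines carried a HoxB deletion (Del) on one chromosome 11 opposite a chromosome 11 with Del(i9-13) and an inserted array of CTCF binding sites, Ins(CBS5-10). The Ins line had the complete array, and the Del(CBS8-10) line lacked its sites CBS8-10. The Inv line had the array inverted, Inv(CBS5-10), and the Inv:Del(CBS7-10) line carried this inversion together with a loss of CBS7-10. Where 4 values are listed without library names, they stand in this order. The sources used here do not say whether a line is 1 clone, and peaks alone do not check the cell type. Chromosome 11 is left out because every edit lies on it.

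CTCF is a zinc-finger protein that binds a long DNA motif and halts the cohesin complex as it extrudes chromatin loops. Its sites mark the boundaries of many chromatin domains, and a large part of them is bound in most cell types. Sites near gene starts can bring promoters into contact with distal elements, and sites between genes can insulate neighbours from each other.

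Membership was decided by the presence of a peak in each list, so the strength of members is a description and not a finding. Strength is given as the −log10 q of the authors' peak caller, which sets the fragments piled up at a summit against the background around it. Each genotype had 1 library, so lines were not tested against each other and p-values are left out. A share is given with a 95% Wilson interval and a difference between shares with a Newcombe interval, both for counting error only. On the 18 autosomes the 4 lists held 81054, 64499, 56237 and 85864 summits. The commonest local background, a stand-in for depth, was 0.858, 0.553, 0.19 and 1.327 fragments in the 4 libraries. The Inv list was the shortest and had the lowest background, and the part of depth in which summits are members was not tested.

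Members at gene starts are shown first, since their DNA can be read from the promoter table. RefSeq promoter windows, of 250 bases before to 50 bases after a gene start, were searched on both strands for the core letters of the CTCF motif: CCA, any 2 bases, AG, any 2 bases, GGC. The 6 windows shown have 1 match and the members with the best rank in their weakest list. The sequences are from RefSeq (GRCm38.p6), 5′ to 3′ on the strand of the gene, with the match in capitals. The match of the first 2 reads along the printed strand and that of the other 4 lies on the opposite strand.
Hsd3b7, chr7:127800468-127800559, plus strand: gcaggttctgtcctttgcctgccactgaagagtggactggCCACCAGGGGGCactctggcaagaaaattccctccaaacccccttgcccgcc
Radil, chr5:142551228-142551319, minus strand: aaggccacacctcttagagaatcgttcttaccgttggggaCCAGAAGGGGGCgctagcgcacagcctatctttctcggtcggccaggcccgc
Mrpl34, chr8:71464749-71464840, plus strand: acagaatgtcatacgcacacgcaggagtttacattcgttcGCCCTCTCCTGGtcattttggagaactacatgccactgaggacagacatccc
Myo1h, chr5:114356812-114356841, plus strand: accagcagaGCCCTCTAGTGGgctgctgtg
Nabp2, chr10:128409982-128410073, minus strand: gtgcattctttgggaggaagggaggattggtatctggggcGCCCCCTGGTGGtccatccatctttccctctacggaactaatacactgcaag
Scn2a, chr2:65668546-65668637, plus strand: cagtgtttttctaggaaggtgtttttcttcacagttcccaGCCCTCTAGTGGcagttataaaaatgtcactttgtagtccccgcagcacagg

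At Hsd3b7, an enzyme gene of bile acid synthesis, the summits lay at 127800543, 127800538, 127800537 and 127800534 in the 4 lists, with −log10 q of 290, 133, 105 and 422. The Ins summit was 29.5 bp from the centre of the match. At Scn2a, a voltage-gated sodium channel gene, the summits lay at 65668590, 65668589, 65668581 and 65668593, with −log10 q of 162, 76.8, 84.6 and 345, and the Ins summit was 1.5 bp from the match centre. Within these 2 promoters the 4 libraries placed the summit in nearly the same bases, and the Inv:Del(CBS7-10) library, with the highest background, had the highest value.

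The −log10 q at Radil, which encodes a Rap-binding protein of cell adhesion, was 230, 112, 157 and 358. At Mrpl34, a gene of the mitochondrial ribosome, it was 199.8, 96.4, 94.5 and 360.2. At Nabp2, which encodes a single-stranded DNA binding protein of DNA repair, it was 266, 109.6, 82.0 and 479.5. At Myo1h, a myosin gene, the match lay just after the gene start and 87.5 bp from the summit, farther than in the other 5 promoters.

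The core letters were more frequent in windows that held a member than in other windows. Of 2189 windows with a member, 222 held a match (10.1%, interval 8.95 to 11.5). Of 3018 windows whose Ins summits were all unshared, 90 did (2.98%, interval 2.43 to 3.65), and of 23869 windows with no Ins summit 392 did (1.64%, interval 1.49 to 1.81). Over all 29076 windows the share was 2.42%. The intervals of the 3 kinds of window did not overlap. Windows of neighbouring gene starts can overlap and hold the same summit or match, so windows are not independent and these intervals are too narrow.

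The share of windows with a match was higher where the strongest Ins summit of the window was stronger. Among windows with a member it was 7.61% (59 of 775) for an Ins −log10 q from 20 to below 50, 15.3% (72 of 470) from 50 to below 100 and 26.0% (64 of 246) from 100. In the class from 20 to below 50, windows with unshared summits only had 5.15% (14 of 272, interval 3.09 to 8.45), and the interval of the members was 5.95 to 9.70. From 50 to below 100, 3 of 15 such windows had one (20%, interval 7.05 to 45.2). Within these classes the intervals of shared and unshared summits overlapped. The median GC content of windows with a member was 59.7%, that of windows with unshared summits only 61% and that of windows without an Ins summit 51%. The part of GC content in these shares was not tested.

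The letters at the free positions also differed. Here a match that lies in several windows of a kind counts once. Counted from 1 at the first C of the core, position 4 was C in 45.9% of 205 matches in windows with a member, in 19.8% of 81 matches with unshared summits only and in 16.5% of 375 matches without an Ins summit. Position 8 was G in 54.6%, 42.0% and 23.5%, and position 9 was G in 61.5%, 48.1% and 32.5%. The commonest form at members was CCACCAGGGGGC, at 24 places in windows with a member, 1 in a window without an Ins summit and none in a window with unshared summits only. CCACTAGAGGGC was found at 9 places and CCACTAGGGGGC at 8, all in windows with a member. By contrast CCAGAAGAGGGC was at 8 places in windows with a member, 13 with unshared summits only and 56 without an Ins summit.

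In windows with exactly 1 match, 195 members, each counted once, lay a median of 27.5 bp from its centre, and 79.5% lay within 50 bp. For 82 unshared summits the median was 35 bp and 59.8% lay within 50 bp. Read along the motif from CCA to GGC, the members were displaced towards the GGC end by a median of 18.5 bp (quartiles 2.5 and 35), and 153 of the 195 lay on that side. Of the unshared summits 53 of 82 did, with a median of 6 bp.

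**Figure D1:**
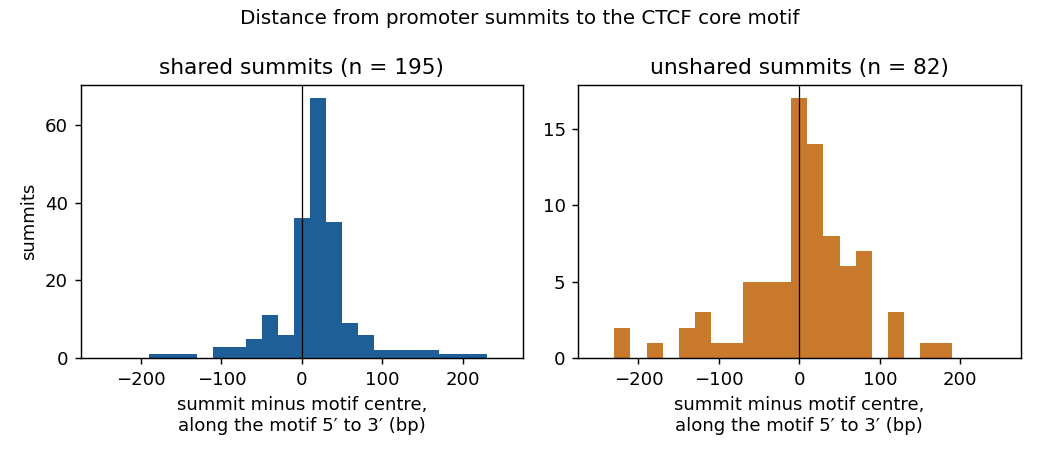
Number of Ins summits (y axis) by distance from the centre of the single core match in their promoter window (x axis, bp, along the motif from CCA to GGC), in bins of 20 bp, for 195 shared and 82 unshared summits, each counted once. The shared summits centre on the GGC side, with a median of 18.5 bp, and the unshared ones are more spread.

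Members had a wide range of strength in every list. The −log10 q ran from 1.50 to 19953 in the Ins library, with a median of 56.9 and quartiles of 30.5 and 88.4. The medians in the other 3 libraries were 24.3, 19.8 and 102, and the medians of all other summits of the 4 lists were 7.59, 5.21, 6.20 and 9.38. The pileup, in fragments over the summit, had a median of 66, 30, 21 and 115 at members. Ranked within its own list, the median member stood at the percentile 75.6, 69.2, 64.7 and 77.1. Members thus lay in the upper part of each list by rank, as the rule makes likely. The rank correlation of member −log10 q between libraries, over the 38717 members, was highest for Ins with Del(CBS8-10) (Spearman's rho 0.88) and lowest for Del(CBS8-10) with Inv (0.71).

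The distance between the summits of a member in different libraries was bounded at 100 bp by the rule, so it is a description. The median distance from the Ins summit was 8 bp in the Del(CBS8-10) list, 10 bp in the Inv list and 6 bp in the Inv:Del(CBS7-10) list. Within 20 bp lay 84.5%, 78.4% and 89.97% of the members, and 2.85%, 3.83% and 1.63% lay over 50 bp away. Just inside the matching distance, 294 members had their farthest partner at 91 to 100 bp, with a median Ins −log10 q of 13.5. Just outside it, 260 summits had theirs more than 100 and at most 110 bp away, with a median of 14.5.

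Of the Ins summits that were no members, 14084 (17.4% of the 81054) were found in no other list, with a median −log10 q of 5.32. The next largest pattern was presence in every list but Inv, with 9941 summits (12.3%) and a median of 15.9. Those missing from the Del(CBS8-10) list alone numbered 5030 (6.21%), and those missing from the Inv:Del(CBS7-10) list alone 585 (0.722%). The lists with the lowest backgrounds accounted for most of the absences from a single list.

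Members lay in wider peaks than other summits. The peak interval around a member had a median width of 462 bp in the Ins library (quartiles 334 and 545), against 263 bp for unshared summits (quartiles 220 and 375), a ratio of 1.76. In the Del(CBS8-10), Inv and Inv:Del(CBS7-10) lists the median at members was 344, 300.0 and 507 bp, against 240.0, 242 and 291 bp for all other summits. Width moves with strength. At an Ins −log10 q of 20 to below 50 the medians were 421 and 334 bp, and at 50 to below 100 they were 482 and 467 bp. From 100 to below 200 the order was reversed, with 517 bp for members and 568.5 bp for 64 unshared summits. From 200 the medians were 577 bp and, for 22 unshared summits, 284 bp. Among the 20000 strongest peaks of each list the ratio was 1.06. The narrowest peak with a member was 200 bp in every list, and the narrowest with an unshared Ins summit was also 200 bp.

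**Figure D2:**
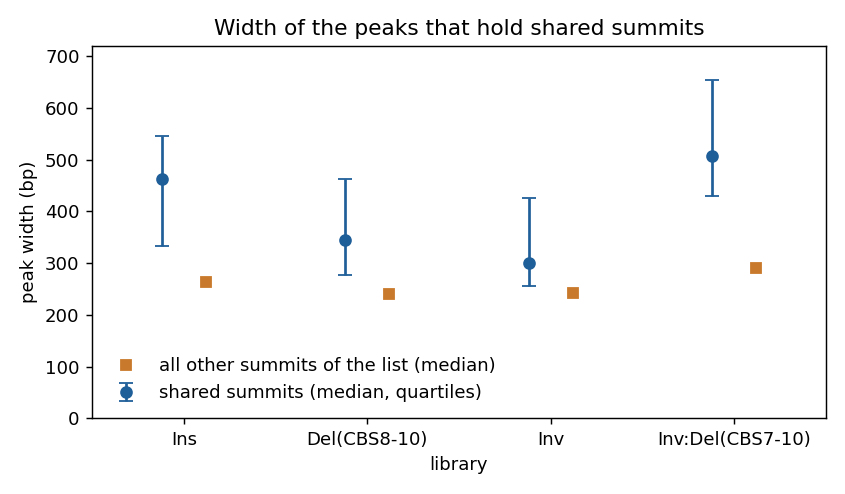
Peak width in bp (y axis) in the 4 libraries (x axis); circles and bars are the median and quartiles over the 38717 shared summits, and squares the median over all other summits of the list. The median at shared summits was above that of the other summits in each library, from 300.0 against 242 bp in Inv to 507 against 291 bp in Inv:Del(CBS7-10).

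The place of members relative to genes was not used by the rule. A summit within 1 kb of a RefSeq gene start counted as promoter, one elsewhere inside a gene as body and the rest as intergenic. Chromosome 18 was left out here because the table of gene starts held none for it. Of 37543 members on 17 autosomes, 3385 (9.02%) were at promoters, 19184 (51.1%) in gene bodies and 14974 (39.9%) intergenic. These places took up 2.25%, 47.6% and 50.2% of the chromosome spans, which gives 68.6, 18.4 and 13.6 members per Mb.

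Unshared Ins summits were at promoters more often, in 12.3% of cases (5042 of 40981), and intergenic less often, in 36.3%. The difference in promoter share, members minus unshared summits, was −3.29 percentage points (interval −3.72 to −2.86), and this direction held on each of the 17 chromosomes. The intergenic share was higher by 3.57 points (interval 2.89 to 4.25), also on each of the 17, and the gene body share differed by −0.279 points (interval −0.979 to 0.421). Without the Del(CBS8-10) library the promoter difference was −1.45 points. With the Inv:Del(CBS7-10) list as the starting list it was −0.839 points and the intergenic difference 1.34 points. Of the 8427 Ins summits at promoters 40.2% were members, against 47.8% of all Ins summits.

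Promoter summits were weaker, with a median Ins −log10 q of 12.8 against 18.7 in gene bodies and 20.0 between genes, and strength moved with membership. Of promoter summits with a −log10 q of 10 to below 20, 30.9% were members (interval 28.8 to 33.1), against 26.2% in gene bodies (25.2 to 27.3) and 28.9% between genes (27.6 to 30.2). From 20 to below 50 the shares were 69.4%, 68.9% and 70.4%, and from 50 to below 100 they were 95.1%, 96.7% and 96.4%. When unshared summits were weighted to the strength of the members, 10.3% were at promoters, 49.6% in gene bodies and 40.1% intergenic, in place of 12.3%, 51.4% and 36.3%. The members had 9.02%, 51.1% and 39.9%. The part of strength in the difference in place was not tested.

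**Figure D3:**
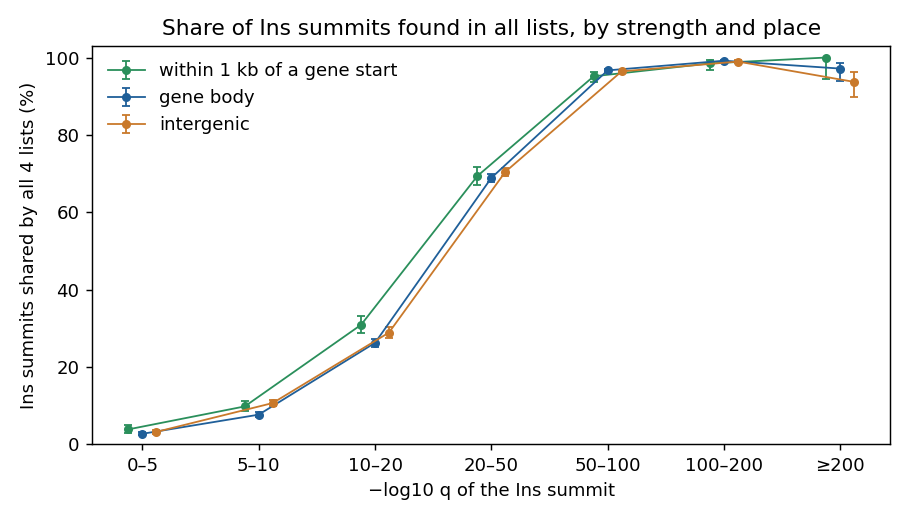
Percent of Ins summits that were shared by all 4 lists (y axis) by the −log10 q of the summit (x axis, 7 classes) for promoters, gene bodies and intergenic places, with 95% Wilson intervals. All 3 curves rise from under 5% in the weakest class to over 90% in the strongest 3.

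Promoter members were also the weaker ones among members. Their median −log10 q was 42.1, 15.6, 16.3 and 59.0 in the 4 libraries. For members in gene bodies it was 58.0, 24.8, 20.0 and 104.7, and for intergenic members 57.8, 25, 20.5 and 107. Promoter members had the lowest median in each of the 4 libraries. The median distance of a member to the nearest known gene start was 18681 bp, against 18176 bp for unshared summits, and 3.33% against 4.59% lay within 100 bp of one.

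The density of members over the 18 autosomes was 16.95 per Mb. It was highest on chromosome 5, with 21.9 per Mb, followed by chromosome 19 (21.2), chromosome 17 (20.8), chromosome 7 (20.6) and chromosome 9 (20.2). It was lowest on chromosome 3, with 12.3 per Mb, before chromosome 18 (13.4), chromosome 13 (14.03) and chromosome 1 (14.04). The highest density was 1.78 times the lowest. Dense chromosomes carried more genes: over the 18 chromosomes, which share the libraries, Pearson's r of member density with protein-coding genes per Mb was 0.81 and Spearman's rho 0.88. For unshared summits the same values were 0.79 and 0.87.

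The share of Ins summits that were members varied less between chromosomes than their density. It ran from 44.6% on chromosome 13 (1646 of 3693, interval 43.0 to 46.2) to 49.8% on chromosome 7 (2926 of 5877, interval 48.5 to 51.1), around 47.8% in all. Chromosome 13 had 14.0 members and 17.5 unshared summits per Mb, whereas chromosome 7 had 20.6 and 20.7.

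**Figure D4:**
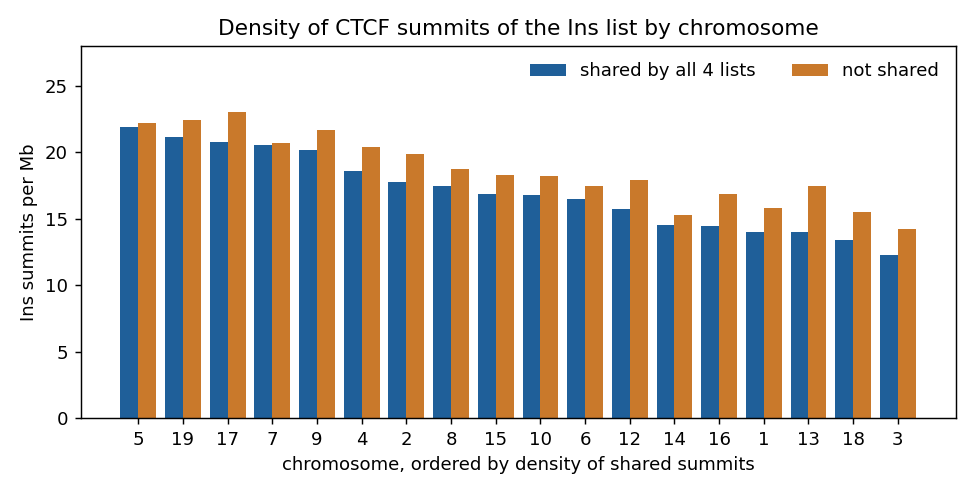
Ins summits per Mb (y axis) on 18 autosomes (x axis, ordered by density of shared summits), for shared (blue) and unshared (orange) summits. Shared summits fall from 21.9 per Mb on chromosome 5 to 12.3 on chromosome 3, and unshared summits follow a like order.

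Along the chromosomes the median distance from a member to the next was 22.2 kb, with quartiles of 8.33 and 57.2 kb and a mean of 59.0 kb. Unshared summits had a median of 21.9 kb and a mean of 53.9 kb. Pairs less than 1 kb apart made up 4.59% of neighbouring members (1778 pairs) and 6.92% of neighbouring unshared summits (2929 pairs). Gaps of more than 500 kb were 1.49% of those between members (576) and 1.03% of those between unshared summits (437). Neighbours were thus less often within 1 kb and more often over 500 kb apart among members, which were also fewer (38717 against 42337). Pairs less than 10 kb apart were about as frequent in both sets, at 29.2% of neighbouring members and 29.4% of neighbouring unshared summits. Among the 20000 strongest peaks of each list the median distance between shared summits was 58.3 kb. Of the 37679 peak intervals with a member, 1005 held more than 1, and the most in an interval was 4.

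**Figure D5:**
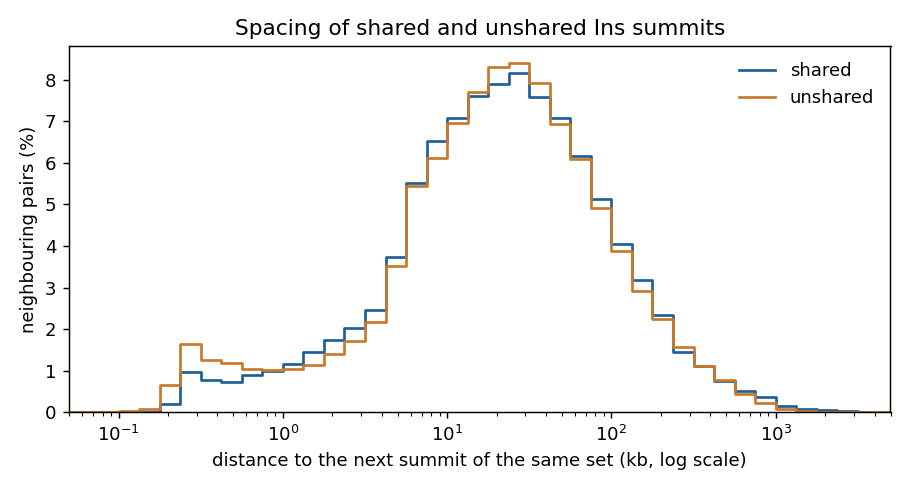
Percent of neighbouring pairs (y axis) by the distance between them (x axis, kb, log scale) for shared and unshared Ins summits. Both curves peak near the medians of 22.2 and 21.9 kb, and the unshared summits have the higher shoulder under 1 kb.

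Members gathered where genes are dense. In 2294 windows of 1 Mb the median was 13 members, with quartiles of 6 and 24. Windows without a protein-coding gene had a mean of 3.39 members (201 windows), those with 1 to 5 genes 9.07, those with 6 to 15 genes 20.8, those with 16 to 30 genes 32.0 and those with at least 31 genes 41.0. The rank correlation of members with unshared summits over windows was 0.89, and that with genes was 0.76 for members and 0.75 for unshared summits.

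The window with most members was chr7:19000001-20000000, with 88. It holds 55 protein-coding genes, among them Apoe, which encodes a lipid carrier, Ercc1 and Ercc2, which act in nucleotide excision repair, and Bcl3 and Relb of the NF-kappa-B pathway. The 4 lists had 153, 125, 126 and 156 summits there, and 57.5% of the Ins summits were members. Next came chr5:135000001-136000000, with 78 members among 134 Ins summits, around Baz1b, a chromatin remodelling subunit, Fzd9, a Wnt receptor, and Hip1. Window chr18:37000001-38000000 had 76 members and the fewest unshared summits of the 8 richest windows (33), so that 69.7% of its summits were members against 47.8% in all. It holds the clustered protocadherins, cell-surface proteins that give neurons their identity.

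The other rich windows were chr8:84000001-85000000 with 75 members, around Nfix, Calr and Junb, chr7:45000001-46000000 with 75, around Bax, Ftl1 and Fgf21, and chr17:28000001-29000000 with 72, around Mapk14, Fkbp5 and Ppard. On chromosome 10 the adjoining windows from 80000001 and from 81000001 had 72 and 70 members, around Gpx4 and Dot1l and around Eef2 and Gna11. In the 8 windows the median member −log10 q in the Ins library ran from 43.8 to 76.8, which lies on both sides of the median of 56.9 over all members. In these windows 51.0% to 69.7% of the Ins summits were members. All 8 windows were chosen for most members, which by itself favours a high share.

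Of the 2294 windows 69 had no member. The one with most unshared Ins summits was chr3:46000001-47000000, with 9 unshared summits and Pabpc4l. Next was chr7:59000001-60000000, with 8 and Ube3a, Snurf and the lower-coordinate end of the imprinted Snrpn record. Then came chr12:42000001-43000000, with 8 and no protein-coding gene, and chr5:11000001-12000000, with 7. In chr13:5000001-6000000, around the transcription factor gene Klf6, the 4 lists had 7, 8, 4 and 11 summits, none of which gave a member. At chr7:59000001-60000000 the 4 lists had 8, 7, 1 and 6 summits, so the Inv list, the shortest of the 4, held the fewest. The rest of the Snrpn record, in the next window, held 5 members, the strongest with a −log10 q of 110.2, 35.6, 62.4 and 162.

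The longest stretch without a member was 3.11 Mb on chromosome 13, from 86228808 to 89334712, which holds 1 protein-coding gene, Edil3, an integrin ligand. The next, 3.06 Mb on chromosome 7 from 7299524 to 10354877, holds 25, of which 24 are vomeronasal receptor genes. A stretch of 2.73 Mb on chromosome 7 from 31177354 to 33903201 holds 30 protein-coding genes, those printed by the annotation under Scgb1b and Scgb2b names, which encode secreted androgen-binding proteins. Stretches of 2.84 Mb on chromosome 3 and 2.72 Mb on chromosome 16 hold none. The lists had 9, 11, 11 and 18 summits in the first stretch and 8, 14, 8 and 11 in the second. These stretches thus held summits in each list with no Ins summit shared by all 4.

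The shortest stretch with 10 members measured 23.0 kb at the start of chromosome 9, from 3001469 to 3024496. It was 310.7 kb from the nearest protein-coding gene, Alkbh8. Its members had a median −log10 q of 810.3, 845.0, 47.1 and 1278 in the 4 libraries. Its peaks were not filtered for places where signal is high without specific binding. The next was 26.3 kb on chromosome 4, from 88773934 to 88800258, within a cluster that holds Ifnz, an interferon gene, and 8 predicted genes such as Gm13272 and Gm13276, with medians of 98.6, 49.1, 98.2 and 178. The other was 30.1 kb on chromosome 5, from 120590780 to 120620867, across Iqcd, Rita1 and Ddx54, with medians of 66.8, 29.9, 32.7 and 153.

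Of 19056 protein-coding genes, 43.3% (8257) had a member inside the gene and 70.1% (13356) within 10 kb. A member inside the gene became more frequent with gene length, from 12.7% of genes under 10 kb to 93.9% of those of at least 300 kb. Density moved the other way, from 3.503 members per 100 kb in the shortest class to 1.06 in the longest. Unshared summits fell in the same way, from 4.18 to 1.12 per 100 kb. A gene with 10 or more members was rare, at 132 genes.

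The 3 highest counts belonged to Gm37013, Gm38666 and Gm38667, with 73, 69 and 68 members. These records overlap along chromosome 18 from 36952648 to 37841873, across the protocadherin clusters, and so share most of their members. Pcdhga1, a gamma protocadherin whose record spans 180.1 kb of the same region, had 24 members of 36 Ins summits. Their median −log10 q was 91.7, 37.5, 30.7 and 143 in the 4 libraries, and neighbouring members stood a median of 5.15 kb apart. The strongest, at 37765898, had 192, 62.8, 41.0 and 262.

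Outside the protocadherins Fry, which encodes a large scaffold protein of cell division and shape, had most members. It lies at chr5:150118618-150497753 and held 37 members among 54 Ins summits (68.5%), where the other lists had 50, 44 and 62 summits. Neighbouring members were 0.238 to 28.9 kb apart, with a median of 9.42 kb. The strongest, at 150496036, had a −log10 q of 161, 85.2, 72.1 and 353. The row of members ran from 150138253 to 150496036.

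Camta1, a transcription factor gene of 802 kb, held 32 members, with the strongest at 151302297 (−log10 q 234, 88.9, 88.9 and 390.0). Dnah8, an axonemal dynein gene, held 27 in 249 kb, at 10.9 per 100 kb. Nav2, a neuron navigator gene, also held 27, in 651 kb. Cdh13, a cadherin gene of 1185 kb, held 26, with a median −log10 q of 36.7, 13.6, 15.9 and 97.5. Mtus2, a microtubule-associated protein gene, held 25. In these 5 genes 54.2% to 62.8% of the Ins summits were members, a share that the choice of genes by member count favours.

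Among genes of at least 20 kb with 3 or more members, Iqcd, a gene of the motile cilium, was the densest, with 6 members in 20.3 kb (29.5 per 100 kb). Its members had a median −log10 q of 90.1, 41.1, 43.8 and 177. Bnip5 had 5 (24.9 per 100 kb), Wfdc1, a secreted protease inhibitor gene, had 5 (23.1 per 100 kb) and Tmem44 had 8 (20.5 per 100 kb). Septin1, a cytoskeletal GTPase gene, had 4 members in 20.3 kb. Their median −log10 q was 176, 69.8, 39.4 and 191 in the 4 libraries, against 56.9, 24.3, 19.8 and 102 over all members. Trpm4, an ion channel gene, had 6 members among 6 Ins summits, and Nynrin 4 among 4. Cabp1, Tmem63b and St6galnac6 completed the 10 densest, at 19.5, 19.1 and 18.96 members per 100 kb.

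Some genes held several Ins summits and no member. Gcnt2, a glycosyltransferase gene, had 11, 6, 4 and 10 summits in the 4 lists. Myo3a, a myosin gene of the inner ear, had 9, 5, 1 and 8, and Kdm5a, a histone demethylase gene, 8, 1, 0 and 3. 2700097O09Rik had 7, 3, 1 and 5, and Celf2, an RNA-binding protein gene of 857 kb, 7, 5, 3 and 5. In each of these 5 genes the Inv list held the fewest summits. Inv was also the shortest list, and the genes were chosen for Ins summits missing from at least 1 other list.

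Of 20 pluripotency genes, 16 had a member within 10 kb, against 70.1% of protein-coding genes. At Sox2 the strongest had a −log10 q of 152, 87.3, 84.0 and 275. At Nanog it had 135, 45.6, 51.4 and 335, and at Esrrb 169.7, 73.3, 83.9 and 269. Pou5f1 (Oct4) had 4 members within 10 kb, the strongest at 92.8, 43.5, 35.2 and 189, while both Ins summits within 1 kb of its known start were unshared. The genes without a member within 10 kb were Tfcp2l1, Klf4, Klf5 and Zfp42, each with 1 to 7 unshared Ins summits there. Of the Ins summits inside the 20 genes, 27.7% (13 of 47) were members, against 46.5% inside all protein-coding genes. The share was also under 46.5% in the other lists described next. It was 31.3% for CTCF and cohesin (21 members, 46 unshared) and 42.5% for imprinted genes (17 and 23). For replication and repair it was 40.5% (17 and 25) and for other cell types 33.3% (7 and 14). These counts are small, and a summit in overlapping genes counts more than once. Gene families lay on both sides of 46.5%. The extremes were 26.1% for vomeronasal receptor genes (6 members, 17 unshared) and 66.7% for Tbx genes (8 and 4), which also rest on few summits. These peaks say nothing of expression.

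Of 15 genes of CTCF and cohesin on these autosomes, 13 had a member within 10 kb, against 70.1% of protein-coding genes, and 5 of 10 with a known start had one within 1 kb of it, against 17.6% of protein-coding genes. These 5 were Cdca5 (sororin), Smc3, a cohesin core subunit, Stag1 and Stag3, cohesin subunits, and Pds5b, a cohesin regulator. The strongest member near Pds5b had a −log10 q of 250.9, 110.4, 57.7 and 358, and that near Ctcf itself 96.1, 45.7, 31.1 and 74.4. Rad21, the cohesin subunit cleaved in mitosis, and Mau2, a part of the cohesin loader, had no member and 4 unshared Ins summits each.

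Of 18 imprinted genes, some of them lncRNA genes, 16 had a member within 10 kb, against 70.1% of protein-coding genes and 53.0% of genes of all types. Peg3, a paternally expressed zinc-finger gene, had the strongest of these, at 6727476 on chromosome 7, with a −log10 q of 349, 136, 77.9 and 662. Meg3 had 177.5, 88.7, 99.4 and 266, and Plagl1 133, 42.3, 66.7 and 250.7. Near H19, whose imprinting control region is a textbook CTCF insulator, 3 members lay within 10 kb, the strongest with 41.5, 27.9, 29.3 and 46.8. Dlk1 had an unshared Ins summit alone within 10 kb, and Ndn had none.

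Of 18 genes of DNA replication and repair 17 had a member within 10 kb, against 70.1% of protein-coding genes, and 5 of 13 with a known start had one at the promoter, against 17.6%. Mcm2, a subunit of the replicative helicase, had 5 members within 10 kb, the strongest at 102.97, 41.7, 57.7 and 291. Pcna, the sliding clamp, had 130.2, 59.4, 69.1 and 254. Mcm4 had an unshared summit alone.

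Genes that mark other cell types were listed because differentiated or feeder cells can accompany stem cells. Of 20 such genes 13 (65%) had a member within 10 kb, near the 70.1% of protein-coding genes. Nes, an intermediate filament gene of neural progenitors, had one at 87987125 on chromosome 3 with a −log10 q of 288, 110.4, 145 and 440.1, and Mesp1, of early mesoderm, had 169, 79.0, 77.2 and 239. Sox17, Pax6, Twist1, Thy1 and Gata6 had unshared Ins summits alone, and Mixl1 and Neurod1 had no Ins summit within 10 kb.

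Gene families lay on both sides of the 70.1% of protein-coding genes with a member within 10 kb. Of 1021 olfactory receptor genes (Olfr), 119 (11.7%) had a member within 10 kb and 819 had no Ins summit there. Of 352 vomeronasal receptor genes (Vmn1r and Vmn2r), 25 (7.102%) had a member. Among protocadherins (Pcdh) 63 of 67 did (94.0%), and 63.7% of the Ins summits inside their spans were members, counted once per overlapping record. Of ribosomal protein genes (Rpl and Rps) 69 of 83 had a member within 10 kb (83.1%), of Hox genes, without the HoxB cluster on chromosome 11, 25 of 29 (86.2%), of Fox genes 32 of 37 (86.5%) and of Tbx genes 9 of 9. Zfp genes, zinc-finger proteins, had one in 242 of 367 cases (65.9%), Slc transporter genes in 269 of 328 (82.0%), Kcn channel genes in 66 of 84 (78.6%), Sox genes in 10 of 15, Cyp genes, cytochrome P450 enzymes, in 53 of 99 (53.5%) and Krt keratin genes in 12 of 26 (46.2%).

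At promoters the order was another. Of 308 Zfp genes with a known start, 79 (25.6%) had a member within 1 kb of it, above the 17.6% of all protein-coding genes, and of 64 ribosomal protein genes 18 did (28.1%). A further 122 Zfp genes and 16 ribosomal protein genes had only unshared Ins summits there, as did 3273 of 15186 protein-coding genes. Of Olfr genes 6 of 866 (0.693%) had a member within 1 kb of the start, of Kcn genes 4 of 61 (6.56%), of Cyp genes 3 of 77 (3.90%) and of Hox genes 2 of 19. None of 8 protocadherin genes with a known start had one. No start was known on chromosome 18, so promoters of the protocadherin clusters there could not be counted. Genes of all types with a known start had a member there in 14.7% of cases (8.08% when peaks of −log10 q under 10 were left out of each list), and lncRNA genes in 9.65%. Neighbouring genes share summits, and families differ in gene length and clustering, so these shares are descriptions.

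Each of the 10 members with the best rank in their weakest list had a local background of more than 20 fragments in the Ins library. Such a background was found at 142 of the 38717 members. The first, at 98667162 on chromosome 2, 35.4 kb from the lncRNA gene Gm33780, had pileups of 26029, 24625, 1268 and 34866 fragments in the 4 libraries. The second, at 3109966 on chromosome 12, 54.8 kb from the pseudogene Gm48310, had 6047, 5992, 425 and 9857. The others in genes were at 103649212 within Chl1, a neural adhesion gene on chromosome 6 (4075, 3942, 198 and 6027), and at 4924003 within Ppp1r9a, a synaptic protein gene on the same chromosome (785, 447, 424 and 1306), besides members in the lncRNA genes Gm31055 and Gm33838. The Inv library had the lowest pileup at each of these 4 members. Among members with a background of up to 20, a limit chosen after the values were seen, the first lay at 3406838 on chromosome 13, 44.5 kb from the pseudogene Gm16505, with a −log10 q of 572, 366, 319 and 966.

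At the weak end, the lowest Ins −log10 q of a member was 1.50, at 35417498 on chromosome 3, 11.5 kb from the lncRNA gene Gm38512. The other libraries had 4.74, 26.0 and 10.8 there, and the highest of the 4 was that of the Inv library. At 118351472 on chromosome 5, near the lncRNA gene Gm46942, the values were 1.65, 10.0, 7.19 and 101.5. At 99978945 within Kcnk13, a potassium channel gene, they were 1.65, 5.98, 15.2 and 44.8. Weak members thus included sites with a strong peak in another line.

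Of the 10 strongest Ins summits that were no members, 8 had a summit within 100 bp in at least 1 other list. Some of these 8 lay on very high local backgrounds. At 3002126, 3017135 and 3004194 on chromosome 9 the background was 721, 539 and 816 fragments. The fold over it was 3.03, 3.23 and 2.71. At 19418655 on chromosome 14 the background was 569 and the fold 4.05. The 2 exceptions lay far from any summit of the other lists. One was at 4626373 on chromosome 17 within the lncRNA gene Gm34259, with a −log10 q of 469 and a pileup of 479 over a background of 19.04, and the nearest summit of another list was 15155 bp away. The other was at 132463759 on chromosome 6, 9.58 kb from the pseudogene Gm18326, with 389 and a pileup of 316 over a background of 6.86, and the nearest was 3789 bp away. Among Ins summits of −log10 q from 100 to below 200, 99.1% (6709 of 6773) were members, and among those from 200 the share was 95.8% (505 of 527).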

How the data were processed

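CTCF CUT&RUN peaks of 4 mESC lines were used, 1 library and 1 list each. Per the submitters' processing notes, cutadapt 4.1, Bowtie2 2.4.5, Picard, bedtools 2.30.0, MACS2 2.2.7.1 and mm10 were used; the sources used here give no settings, read depth or control. The authors' lists deposited for each peak a score (−log10 q times 10), a fold over local background, a −log10 p-value, a −log10 q-value and a summit. The fold ratio and the −log10 values are the authors'.

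Summits are the peak start plus the deposited offset, counted from 1. The pileup and local background were recovered from the fold and −log10 p (tolerance 0.001; 100% of peaks in each list), the fold being read as (pileup + 1) divided by (background + 1). Gene spans and starts are RefSeq GRCm38.p6: 15186 of 19056 protein-coding and 8697 lncRNA genes had a known start, and none on chromosome 18. Summits at unknown starts count as body or intergenic. Density used the span between the outermost summits of any list. Python 3.11.15, NumPy 2.4.6, pandas 2.3.3, SciPy 1.17.1 and Matplotlib 3.10.9 were used; scripts were tested on simulated data.

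The members and lists were chosen with earlier results of these data known. Named were the genes, windows and stretches richest and poorest in members, the summits at the extremes of strength, the genes of the lists and 6 promoters; windows with equal counts were ordered by unshared summits. Of 16 CTCF and cohesin genes 15, and of 19 imprinted genes 18, were matched on these autosomes, and no symbol began with Hist. Alternatives were 50 and 250 bp, only the 20000 strongest peaks, only peaks with −log10 q from 10, 1 summit per interval, leaving out a library, another starting list, 2 kb around starts and protein-coding genes only. Gene ends and a local background of at most 20 were added after the data were seen.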

Additional observations from a re-analysis of the deposited data

How the results depend on the processing

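No paired analysis was possible because each genotype had 1 library. The signs of the promoter and intergenic differences held in every alternative run, and the sizes below moved beyond their counting intervals; the cause was not tested. These runs did not include the weighting to strength, where 40.1% of unshared summits and 39.9% of members were intergenic. At promoters lay 10.3% of the weighted unshared summits and 9.02% of members. The share of starting summits that were members was 44.6% at 50 bp, 50.76% at 250 bp, 50.78% at a −log10 q of at least 10, 66.0% among the 20000 strongest, 48.7% with 1 summit per interval, 60.03% without Inv, 54.0% without Del(CBS8-10), 48.5% without Inv:Del(CBS7-10), 45.2% from the Inv:Del(CBS7-10) list and 46.2% without high backgrounds. The promoter difference was −4.67 points at 50 bp, −2.40 at 250 bp, −5.00 at −log10 q of at least 10, −2.23 among the 20000 strongest, −4.61 without Inv, −1.45 without Del(CBS8-10), −0.839 from the Inv:Del(CBS7-10) list and −2.52 with either gene end. The intergenic difference was 1.34 points from the Inv:Del(CBS7-10) list. The width ratio was 1.74 at 50 bp, 1.80 at 250 bp, 1.46 at −log10 q of at least 10, 1.06 among the 20000 strongest, 1.80 with 1 summit per interval, 1.75 without Del(CBS8-10), 1.74 from the Inv:Del(CBS7-10) list and 1.74 without high backgrounds. The median spacing was 23.8, 20.6, 31.2, 58.3 and 24.0 kb in the first 5 of these settings, 18.2 kb without Inv, 19.6 kb without Del(CBS8-10) and 23.7 kb without high backgrounds. Genes with a member at the start were 12.4%, 16.1%, 8.08%, 3.46% and 13.9% in the same 5 settings, 17.7% without Inv, 18.5% without Del(CBS8-10), 19.8% with 2 kb and 17.6% for protein-coding genes. Read depth is unknown, so the absence of a summit from a list is no evidence that CTCF was absent.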

Other observations

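The same rule applied to chromosome X gave 1160 shared summits of 2595 in the Ins list (44.7%, interval 42.8 to 46.6). Their density was 6.92 per Mb, under the lowest of the 18 autosomes (12.3 on chromosome 3), and their median spacing was 43.1 kb. The number of X chromosomes in these lines was not determined here.

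On the edited chromosome 11, where the array lies, 2612 of 5103 Ins summits were shared (51.2%, interval 49.8 to 52.6), and on its deposited copy with the Del deletion 2609 of 5036 (51.8%, interval 50.4 to 53.2). The densities were 21.98 per Mb on both. Both copies share most of their sequence, so their peaks are not separate measurements.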
